A study of Mus musculus with 31 samples.

Results

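The material was RNA recovered from mice without Cre recombinase by the affinity pulldown that is otherwise used to isolate tagged ribosomes, and the comparison was between the sciatic nerve and the lumbar dorsal root ganglia. Members were the 7 Cre-negative libraries of the second batch, chosen by genotype, tissue and batch in the labels, out of 31 libraries in the whole study. They were 3 sciatic nerve libraries, called nerve controls 1, 2 and 4, and 4 ganglion libraries, called ganglion controls 5 to 8. All 7 came from mice labelled L10a-eGFP-fl/fl, which carry the conditional allele of a GFP-tagged ribosomal protein L10a but no recombinase to switch it on. The same batch held 8 libraries from Nav1.8-Cre;L10a-eGFP-fl/fl mice, in which Cre is driven by the gene of the sodium channel Nav1.8 (Scn10a), 4 from sciatic nerve and 4 from ganglia, called Cre libraries. The labels number every library as a biological replicate and give no age, sex, litter or pooling of animals, so p-values measure the spread between these libraries. The upper estimate of RNA in the labels' protocols was lower for axon than for soma preparations, so that amount of input and tissue cannot be told apart. The comparison addressed which tissue RNA such a pulldown carries along when no tagged ribosome should be present.

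Translating ribosome affinity purification captures polysomes through a tag on a ribosomal protein, so that the bound messenger RNA of 1 cell type can be sequenced. RNA that sticks to the beads or to other particles is co-purified, and a Cre-negative pulldown measures it. The sciatic nerve holds sensory and motor axons wrapped by myelinating and non-myelinating Schwann cells, within collagen-rich sheaths threaded by vessels, and runs between limb muscles, while neuronal cell bodies and their satellite glia lie in the ganglia. In these bulk libraries fewer cells of a type and less RNA per cell cannot be told apart, and neither can be told from a difference in how much RNA stuck to the beads.

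The sum of counts over all genes was 4544577, 6487124 and 5092145 in nerve controls 1, 2 and 4, and 18080478, 4053998, 3601399 and 4515978 in ganglion controls 5 to 8. A level of 20 CPM, on the counts-per-million scale of each library, had a Wilson 95% interval of 15.9 to 25.2 CPM in the shallowest library, and 3 counts, taken as the smallest detectable amount, equalled 0.166 to 0.833 CPM. These intervals and floors cover counting error only, since the reads carry no molecular identifiers. Detected genes, those with 10 counts or more, numbered 12257 ± 2305 in nerve (SD, n = 3) and 13097 ± 2506 in ganglion (n = 4). The difference of means, nerve minus ganglion, was -840, less than the spread between replicates (exact two-sided permutation p = 0.686; 35 arrangements allow none below 0.0571).

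The library labelled ganglion control 5 stood apart from its group in its likeness to the 4 Cre ganglion libraries. Its Spearman's rho across genes was 0.95 to 0.97 with them, against 0.72 to 0.86 for ganglion controls 6 to 8. Those 3 controls had 0.71 to 0.85 among themselves, and the library labelled ganglion control 5 had a similar 0.74 to 0.85 with them. It was the deepest of the 7, with a total in the range of the Cre ganglion libraries (15562715 to 19637292), and mitochondria-encoded genes took 0.111% of its counts, compared with 0.613% to 1.78% in ganglion controls 6 to 8 and 0.0216% to 0.0569% in the Cre ganglion libraries. Why it resembled them was not tested. Nerve control 4 stood out in another way. Of the 4889 genes that averaged at least 50 CPM in nerve controls 1 and 2, 331 had 0 counts in it. By the same measure there were 7 and 11 such genes in nerve controls 1 and 2. Ganglion control 7 had 66 of 4659, against 0 to 3 genes in the other ganglion controls. Detected genes were fewest in nerve control 4 (9606) and ganglion control 7 (10014). Several results are therefore also given without the library labelled ganglion control 5, without nerve control 4, and without nerve control 2, which held most of the muscle RNA described below.

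**Figure D1:**
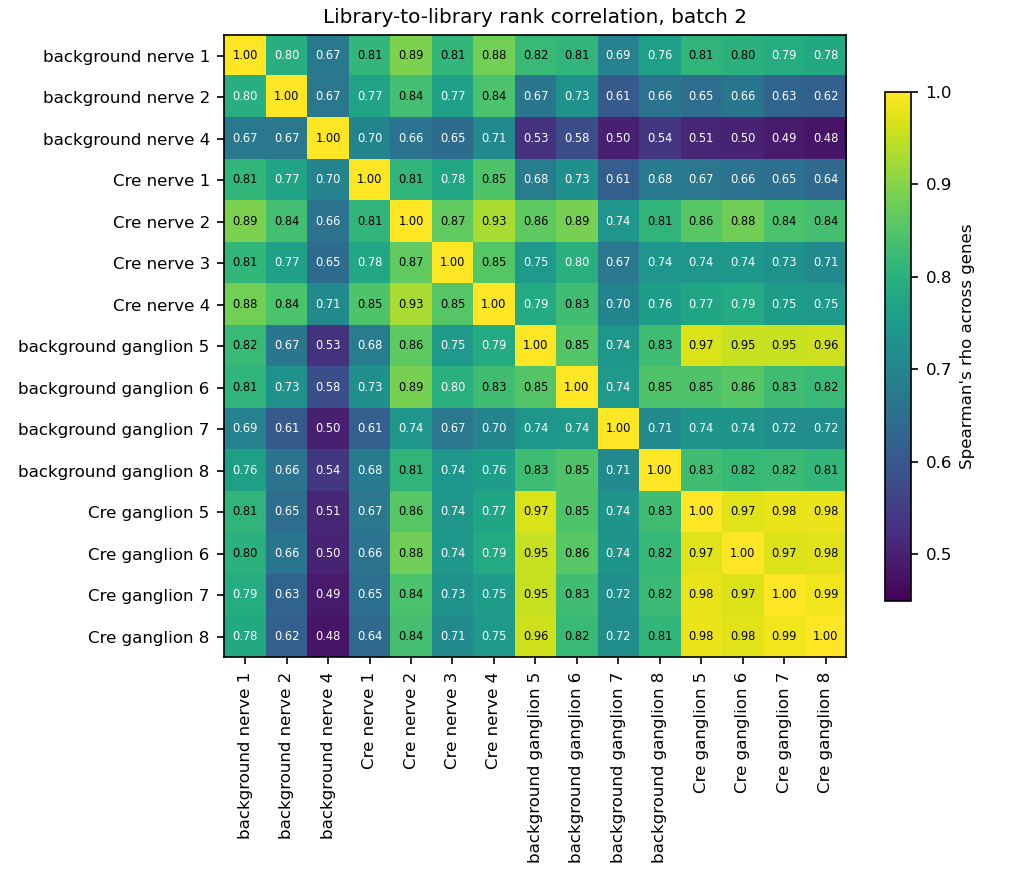
Spearman's rank correlation across genes between the 15 libraries of the second batch, as a heat map with the value in each cell; rows and columns are libraries, background standing for Cre-negative. The library labelled ganglion control 5 has values of 0.95 to 0.97 with the Cre ganglion libraries, and nerve control 4 has the lowest values, 0.48 to 0.71.

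Of 13715 genes tested with edgeR's quasi-likelihood test on the 7 libraries, 11 (0.0802%) had a Benjamini-Hochberg adjusted p under 0.05 and are called here; 9 (0.0656%) were higher in nerve and 2 (0.0146%) lower. The genes higher in nerve were Prx, Gjc3, Pou3f1, Plekha4, Smtn, Dlk1, Aatk, Cacng1 and Atp2a1, and Serpini1 was among the lower ones. Replicates varied widely, with a biological coefficient of variation of 1.10, and the smallest adjusted p was 0.0330. At an unadjusted p under 0.05, 675 genes lay higher in nerve (4.92% of those tested) and 666 lower (4.86%). Every nerve library lay above every ganglion library in 1060 genes (7.73%) and below in 1162 genes (8.47%). The median log2 fold change over all tested genes, nerve minus ganglion, was -0.11, and values below are to be read against it. The calls depended on single libraries: leaving out nerve control 2, or any 1 of the 4 ganglion controls, gave 0 calls in edgeR, whereas 43 and 18 were made without nerve controls 1 and 4. DESeq2 called 607 genes (298 higher, 309 lower), voom 260 (181 higher, 79 lower), and an edgeR fit that took its spread from all 15 libraries 526 (348 higher, 178 lower), with 10, 10 and 11 of the 11 among them. The Cre ganglion libraries in that last fit had a mean rho of 0.97 to 0.98 within their group, against 0.67 to 0.82 in the 2 background groups. Its spread is therefore not that of the background libraries alone.

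**Figure D2:**
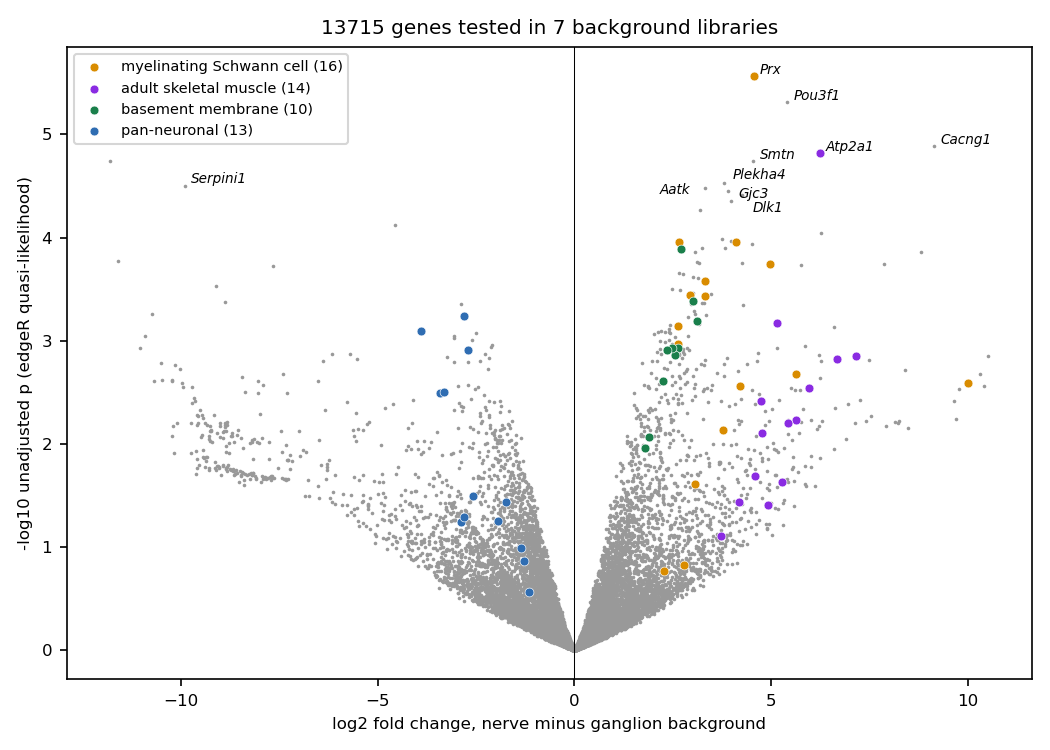
Log2 fold change, nerve minus ganglion background (x axis), against minus log10 of the unadjusted p (y axis) for the 13715 genes tested; coloured points are the tested members of 4 marker lists, with their numbers in the key, and names mark called genes. Myelin, basement membrane and muscle members lie on the right and pan-neuronal members on the left.

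RNA of myelinating Schwann cells lay higher in nerve, at similar levels in the 3 nerve libraries. The 16 marker genes summed to 16738, 11471 and 15655 normalised CPM in nerve controls 1, 2 and 4 (CPM after TMM scaling of the library totals), and to 1558, 1594, 2674 and 869 in ganglion controls 5 to 8. All nerve sums lay far above all ganglion sums. Of the 16 genes, 15 had every nerve library above every ganglion library, 14 had an unadjusted p under 0.05, and Prx alone was called; the median log2 fold change was 3.32. The mean sum was 8.74 times as high in nerve, and 8.54 times without the library labelled ganglion control 5, when again 15 did not overlap and 14 had an unadjusted p under 0.05. Over all genes without that library, 964 of 13061 tested had such a p, in either direction, and the share without overlap was not computed. In the fit over all 15 libraries, with its different spread, 13 of the 16 were called higher, beside 348 of all 15717 genes tested.

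Prx, which encodes periaxin, a scaffold of the Schwann cell membrane needed for stable myelin (chromosome 7, 27499324 to 27520214, GRCm38), was at 850.3, 1532 and 1073 normalised CPM in nerve and 65.6, 47.4, 56.8 and 25.9 in ganglion. The lowest nerve library was above the highest ganglion library by more than the range of the ganglion group (log2 fold change, given below as log2 difference, 4.55 ± 0.52 SE, edgeR adjusted p 0.033). Both Mbp, the myelin basic protein, and Pmp22, a tetraspan myelin protein, had every nerve library above every ganglion library without being called. Mbp was at 4945, 2725 and 3436 in nerve and 334, 258, 742 and 138 in ganglion, and Pmp22 at 3796, 1584 and 3622 in nerve and 557, 314, 811 and 263 in ganglion. The claudin gene of Schwann cell tight junctions, Cldn19, was at 243, 179 and 206 in nerve, with little spread, and at 11.5, 10.1, 0.277 and 4.40 in ganglion (log2 difference 4.97 ± 0.90 SE, edgeR adjusted p 0.078). Gldn, for gliomedin, which gathers sodium channels at nodes, was the 1 member that overlapped: it was at 83.2, 74.7 and 0.165 in nerve, close to 0 in nerve control 4, and 1.02, 6.31, 23.3 and 0 in ganglion.

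Among the other called genes were Pou3f1 and Gjc3, which are known from the Schwann cell lineage but were not on the myelin list. Aatk and Plekha4, also called, were not assigned to a cell type here. Pou3f1 encodes the transcription factor Oct6 of promyelinating Schwann cells (chromosome 4, 124656807 to 124660655). It was at 494, 1246 and 1040.4 normalised CPM in nerve and 23.4, 36.6, 20.5 and 6.95 in ganglion, a difference many times the spread within either group (log2 difference 5.40 ± 0.66 SE, edgeR adjusted p 0.033). Gjc3 encodes a connexin of myelinating glia (chromosome 5, 137953461 to 137963098). Its levels were 509.6, 309 and 654 in nerve and 13.3, 35.6, 23.6 and 58.8 in ganglion (log2 difference 3.90 ± 0.59 SE, edgeR adjusted p 0.0485). The kinase gene Aatk (chromosome 11, 120007313 to 120047167), outside the naming rule and given to complete the called genes, was at 519.5, 693 and 1121 in nerve and 57.1, 69.9, 122 and 61.9 in ganglion (log2 difference 3.32 ± 0.50 SE, edgeR adjusted p 0.0485). Plekha4, a gene for a phosphoinositide-binding protein (chromosome 7, 45526330 to 45554229), was at 165, 171 and 374 in nerve and 11.5, 15.6, 26.1 and 14.4 in ganglion (log2 difference 3.81 ± 0.56 SE, edgeR adjusted p 0.0485). No library of one tissue entered the range of the other for any of these 4 genes.

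Smtn, Dlk1 and the muscle genes made up the rest of the higher calls. Smtn, the actin-binding protein smoothelin (chromosome 11, 3517523 to 3540612), was at 434, 636 and 765 normalised CPM in nerve and 38.0, 22.2, 37.7 and 6.49 in ganglion (log2 difference 4.55 ± 0.64 SE, edgeR adjusted p 0.0414). Acta2, the smooth muscle actin, was at 32.9, 31.3 and 0 in nerve and 1.43, 21.9, 0 and 0 in ganglion. It belongs to the pericyte and smooth muscle list, in which 8 of 9 genes overlapped. Of 8 tested, 7 lay higher in nerve, 1 had an unadjusted p under 0.05 and 0 were called, with a median log2 fold change of 1.74. The sums of that list did not overlap, at 161, 344 and 179 in nerve and 56.7, 136, 87.3 and 63.9 in ganglion. Part of the exon length of Smtn (16.3%), Pou3f1 (8.57%) and Prx (5.38%) is overlapped on the other strand, and since the strand setting of the counting is not given in the sources used here, reads of such partners cannot be told apart. Dlk1, a membrane protein related to the Notch ligands and expressed from the paternal allele (chromosome 12, 109452823 to 109463336), was at 248, 919 and 642 in nerve and 16.7, 37.8, 55.7 and 16.2 in ganglion (log2 difference 4.26 ± 0.65 SE, edgeR adjusted p 0.0485).

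Markers shared by the Schwann lineage pointed both ways, unlike the myelin genes. Of the 10 genes, 9 were tested, 4 lay higher and 4 lower at an unadjusted p under 0.05, and 0 were called; the sums overlapped, at 1089.6, 1149 and 1519 normalised CPM in nerve and 800.1, 2036, 1269 and 1549.5 in ganglion. Erbb3, the neuregulin receptor of Schwann cells, was at 127, 155 and 477 in nerve and 7.89, 25.5, 21.1 and 10.2 in ganglion, with no overlap (log2 difference 3.97 ± 0.68 SE, edgeR adjusted p 0.0758). The lineage transcription factor Sox10 was at 203, 165 and 393 in nerve and 27.8, 63.6, 19.7 and 51.2 in ganglion, also without overlap. S100b, a calcium-binding protein of glia, went the other way, with 242, 246 and 124 in nerve and 229, 1003, 639 and 521 in ganglion; it overlapped through the library labelled ganglion control 5. Ngfr, the p75 neurotrophin receptor, was at 22.9, 63.4 and 40.9 in nerve and 48.5, 235, 82.3 and 144 in ganglion, with the same library inside the nerve range. Without that library, 3 of the 10 genes had every nerve library below every ganglion library, against 0 with it. Groups separate more readily with a library fewer, and the share over all genes was not computed for that setting.

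Satellite glia markers were split as well. Fabp7, a fatty acid binding protein of satellite glia, was at 14.9, 0 and 0 normalised CPM in nerve, where only nerve control 1 held any, and at 43.0, 255, 637 and 639.8 in ganglion (log2 difference -6.33 ± 1.79 SE, edgeR adjusted p 0.239, not called). The potassium channel gene Kcnj10 and the endothelin receptor gene Ednrb, both on the same list, stood the other way round. Kcnj10 was at 179, 25.1 and 236 in nerve and 10.2, 18.9, 0 and 3.01 in ganglion, and Ednrb at 274, 235 and 732 in nerve and 21.5, 74.4, 112 and 20.6 in ganglion. Apoe, the lipid carrier, overlapped, with means of 763 ± 258 in nerve and 751 ± 566 in ganglion (SD, n = 3 and n = 4). Of the 6 markers 2 lay higher and 1 lower at an unadjusted p under 0.05, and 0 were called.

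Connective tissue RNA was present in every background library and lay higher in nerve. The 15 fibroblast markers summed to 9657, 33703 and 22735 normalised CPM in nerve and 1696, 4720.0, 5952 and 3343 in ganglion. Nerve control 2 was the highest, the library labelled ganglion control 5 the lowest, and the sums of the groups did not overlap. At an unadjusted p under 0.05, 10 of the 15 lay higher and 0 lower. None was called, and the median log2 fold change was 2.39. The fit over all 15 libraries called 9 higher, beside 348 of all 15717 genes tested. The mean sum was 5.61 times as high in nerve, and 3.47 times without both nerve control 2 and the library labelled ganglion control 5.

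Col1a2, the alpha 2 chain of type I collagen (chromosome 6, 4504814 to 4541544), was at 1745, 6555 and 3565 normalised CPM in nerve and 281, 762, 1056 and 346 in ganglion. The nerve libraries were all above the ganglion libraries, the closest pair being nerve control 1 and ganglion control 7 (log2 difference 2.69 ± 0.68 SE, edgeR adjusted p 0.191, not called). Col1a1, its partner chain, was at 1166, 8687 and 2656 in nerve and 233, 902, 602 and 257 in ganglion. Sparc, a collagen-binding matrix protein, was at 3228, 5912 and 7770.4 in nerve and 426, 1216, 1602 and 808 in ganglion, and per kilobase of exon it was the most abundant member of this list in nerve (1488 normalised CPM per kilobase, against 267 in ganglion). Col5a1, a chain of the fibril-regulating type V collagen, had the smallest p of the list, at 817, 3265 and 1238 in nerve and 103, 138, 215 and 70.2 in ganglion (log2 difference 3.75 ± 0.64 SE, edgeR adjusted p 0.0758). Col3a1 and Dcn, for type III collagen and the proteoglycan decorin, overlapped between the tissues through nerve control 1. They were among 7 of the 15 fibroblast markers that overlapped. In the other 8 every nerve library lay above every ganglion library, beside 7.73% of all genes tested.

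The 10 genes of the basement membrane, the laminin and type IV collagen sheet around each Schwann cell, muscle fibre and vessel, did not overlap between tissues in any member. They summed to 2737, 6322 and 6207 normalised CPM in nerve and 409, 1195, 1372 and 723 in ganglion, with a median log2 fold change of 2.53. All 10 had an unadjusted p under 0.05, in the same direction, and 0 were called. The fit over all 15 libraries called 10 higher, beside 348 of all 15717 genes tested. Lamc1, the laminin gamma 1 chain, was at 286, 546 and 653 in nerve and 58.3, 69.6, 111 and 66.9 in ganglion (edgeR adjusted p 0.0758). Hspg2, the heparan sulfate proteoglycan perlecan, was at 370.1, 1258 and 565 in nerve and 35.4, 164, 96.7 and 41.2 in ganglion. Leaving out nerve control 2 and the library labelled ganglion control 5 left all 10 genes without overlap, and 9 of 10 with an unadjusted p under 0.05. Over all genes in that setting, 778 of 14028 tested had such a p, in either direction. The share without overlap was not computed there, and fewer libraries separate more readily.

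**Figure D3:**
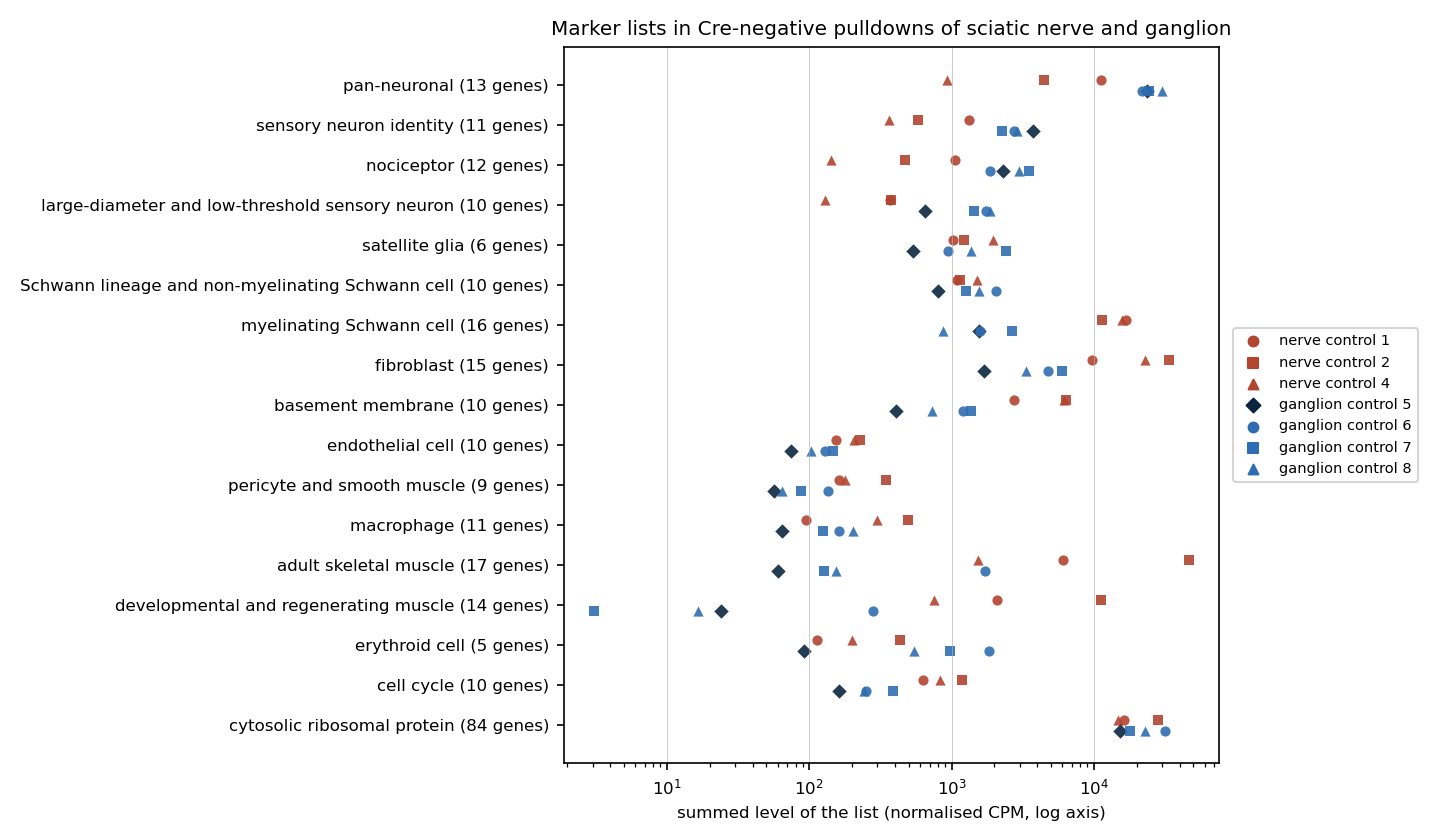
Summed level of 17 marker lists (rows, with the number of genes in the table) in each of the 7 background libraries, in normalised CPM on a log axis; red symbols are nerve, blue ganglion, and the dark diamond the library labelled ganglion control 5. Myelinating Schwann cell, fibroblast and basement membrane sums separate the tissues in one direction and neuronal sums in the other, while muscle sums spread most within nerve.

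Skeletal muscle RNA lay higher in nerve but was uneven among the nerve libraries. The 17 genes of adult muscle summed to 6100.4, 46600.4 and 1536 normalised CPM in nerve controls 1, 2 and 4, and to 60.2, 1710.0, 128 and 154 in ganglion controls 5 to 8. Nerve control 2 held most of it, ganglion control 6 exceeded nerve control 4, and the groups overlapped. Of the 17 genes, 6 had every nerve library above every ganglion library and 11 overlapped. Of 14 genes tested, 13 lay higher at an unadjusted p under 0.05 and Atp2a1 alone was called. The median log2 fold change was 5.22. The mean sum was 35.2 times as high in nerve. It was 7.44 times without nerve control 2, when 6 of 14 had an unadjusted p under 0.05, beside 1087 of all 14569 genes tested. Without ganglion control 5 as well it was 5.75 times, when 4 of 14 had such a p, beside 778 of all 14028.

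Atp2a1, the calcium pump of fast muscle fibres (chromosome 7, 126445858 to 126463108), was at 180.5, 1069 and 135 normalised CPM in nerve and 3.35, 10.8, 4.99 and 5.56 in ganglion (log2 difference 6.23 ± 0.85 SE, edgeR adjusted p 0.0414). A share of 21.9% of the Atp2a1 exons is overlapped on the other strand by a neighbour. Cacng1, a subunit of the muscle calcium channel (chromosome 11, 107703218 to 107716522), was at 43.7, 221 and 54.5 in nerve and 0.299, 0.252, 0 and 0 in ganglion, where it had 6 counts in all. The ratio of pooled counts per scaled library size was 522 (95% interval 239 to 1425), an interval for counting error only, and the gene was called (edgeR adjusted p 0.0414). Both lost the call without nerve control 2, and over the alternative fits the adjusted p reached 0.434 for Atp2a1 and 0.68 for Cacng1. Acta1, skeletal muscle actin, was at 2129.7, 12026 and 518 in nerve and 22.5, 618, 8.59 and 67.6 in ganglion, so that ganglion control 6 was above nerve control 4. Ttn, the giant sarcomere protein titin, did not overlap, at 1166, 6145 and 294 in nerve and 2.69, 66.6, 2.22 and 0.463 in ganglion (log2 difference 7.15 ± 1.69 SE, edgeR adjusted p 0.164).

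Genes of developing and regenerating muscle were detected along with the adult ones. Myh3, the embryonic myosin heavy chain (chromosome 11, 67078300 to 67102291), was at 189, 844 and 278 normalised CPM in nerve and 2.75, 38.1, 0 and 0 in ganglion. Every nerve library held it, while ganglion controls 7 and 8 had 0 counts (log2 difference 5.43 ± 1.59 SE, edgeR adjusted p 0.259, not called). Myh8, the perinatal myosin heavy chain, was at 1525, 8025 and 141 in nerve and 3.71, 65.3, 3.05 and 0.232 in ganglion. The adult fast myosin genes Myh1, Myh2 and Myh4 were each at or below 42.7 normalised CPM in every nerve library. The satellite cell gene Pax7 and the myogenic regulator Myf5 had 0 counts in all 3 nerve libraries. Of the 14 genes, 3 had every nerve library above every ganglion library and 11 overlapped. Among 8 tested, 5 lay higher at an unadjusted p under 0.05 and 0 were called. The sums were 2085, 11244 and 746 in nerve and 24.1, 279, 3.05 and 16.4 in ganglion. Without nerve control 2 the mean sum was 17.6 times as high in nerve, against 58.2 times with it.

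Neuronal RNA was found in the background of both tissues and lay higher in the ganglia. The 13 pan-neuronal genes summed to 23729, 21659, 24227 and 30093 normalised CPM in ganglion controls 5 to 8, and to 11141, 4488 and 924 in nerve controls 1, 2 and 4. All nerve sums lay below all ganglion sums, with nerve control 1 the highest of the nerve libraries and nerve control 4 the lowest. Every nerve library was below every ganglion library in 10 of the 13 genes, 7 had an unadjusted p under 0.05, and 0 were called; the median log2 fold change was -2.72. The mean nerve sum was 0.221 of the ganglion sum, and 0.218 without the library labelled ganglion control 5, when 10 did not overlap and 5 had an unadjusted p under 0.05. Beside these stood 964 of all 13061 genes tested in that setting with such a p, in either direction. The share of all genes without overlap was not computed there.

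Neurofilaments, the structural proteins of large axons, were among them. Nefm, the medium neurofilament chain, was at 1409.7, 4836, 4053 and 6046 normalised CPM in ganglion and 461, 295 and 68.7 in nerve (log2 difference -3.89 ± 0.85 SE, edgeR adjusted p 0.156), and Nefh, the heavy chain, at 306, 1267, 1407 and 1194 in ganglion and 171, 98.9 and 207 in nerve. For both chains the library labelled ganglion control 5 was the lowest of its group. Snap25, a protein of synaptic vesicle fusion, was at 389, 352, 307 and 742 in ganglion and 95.1, 27.7 and 69.8 in nerve (log2 difference -2.80 ± 0.59 SE, edgeR adjusted p 0.138). Prph, peripherin of small-diameter neurons, was at 4706, 2738, 4599.8 and 3536 in ganglion and 2270.1, 927 and 277 in nerve, with nerve control 1 close to the ganglion range.

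Scn10a, the gene of the Nav1.8 channel whose locus drives Cre in the other mice (chromosome 9, 119608456 to 119719322), was at 327, 302, 597 and 299 normalised CPM in ganglion controls 5 to 8. It was at 123, 43.0 and 0 in nerve controls 1, 2 and 4, so that all nerve libraries were below all ganglion libraries and nerve control 4 had 0 counts (log2 difference -2.79 ± 1.29 SE, edgeR adjusted p 0.518, not called). For the 12 nociceptor markers the sums were 1054, 469 and 142 in nerve and 2299, 1848, 3498 and 2986 in ganglion. In 8 of the 12 every nerve library was below every ganglion library. At an unadjusted p under 0.05 there was 1 gene, and 5 without nerve control 4, beside 1469 of all 14859 genes tested there. None was called, and the median log2 fold change was -2.54. Calca, the precursor of the neuropeptide CGRP, was at 1025, 459, 1039 and 1006 in ganglion and 427, 176 and 98.1 in nerve (edgeR adjusted p 0.279).

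Identity genes of sensory neurons, 11 of 12 in the table, showed 7 without overlap and lower in nerve, 5 with an unadjusted p under 0.05 and 0 called. Isl1, a homeodomain factor of sensory neurons, was at 401, 435, 326 and 491 normalised CPM in ganglion and 211, 27.0 and 11.1 in nerve. Ret, a receptor for the GDNF family, was at 320.0, 230.3, 263 and 223 in ganglion and 119, 49.4 and 39.0 in nerve (log2 difference -1.90 ± 0.52 SE, edgeR adjusted p 0.222). Ntrk2, the receptor for BDNF, overlapped, at 12.9, 107, 34.9 and 70.7 in ganglion and 37.6, 60.4 and 186 in nerve, with nerve control 4 the highest of all 7. Markers of large-diameter and low-threshold neurons gave 4 of 10 without overlap, 4 at an unadjusted p under 0.05 and 0 called. Piezo2, the mechanotransduction channel, was at 307, 1119, 674 and 733 in ganglion and 154, 174 and 75.3 in nerve. Pvalb, for parvalbumin, a marker of proprioceptors among these neurons, was at 44.3, 261, 361 and 542 in ganglion and 25.5, 85.3 and 32.0 in nerve. It overlapped because nerve control 2, the library with most of the muscle RNA, lay above the library labelled ganglion control 5.

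Serpini1, neuroserpin, a secreted protease inhibitor of neurons (chromosome 3, 75557547 to 75643495), was called lower in nerve. It had 1 count in nerve control 1, 0 in the others, and was at 28.1, 60.3, 51.0 and 175 normalised CPM in ganglion. Its ratio of pooled counts, ganglion over nerve, was 951 (95% interval 170.5 to 37591) for counting error only (edgeR adjusted p 0.0485).

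Further genes named by the rule on the lower side, 6 in all, were not called. Ptgds, prostaglandin D2 synthase, was at 912, 1610.4, 2747 and 2511 normalised CPM in ganglion and 154, 46.0 and 48.0 in nerve (log2 difference -4.56 ± 0.75 SE, edgeR adjusted p 0.0733). Vsnl1, a neuronal calcium sensor, had 0 counts in every nerve library and was at 11.1, 37.1, 137 and 54.7 in ganglion (edgeR adjusted p 0.078). Its ganglion mean (59.9, SD 54.4) was 109 times a floor of 3 counts in each nerve library, averaged on the normalised scale. That ratio bounds the nerve side only and leaves out the wide spread between ganglion libraries. Fam19a2, a secreted neuronal protein, was at 14.3, 49.2, 146 and 114 in ganglion with 6 counts in the 3 nerve libraries together, a ratio of 139.9 (95% interval 64.1 to 382). Pou4f3, a transcription factor of sensory neurons, and Pik3cb, a catalytic subunit of phosphoinositide 3-kinase, each had 1 count in nerve, against 30.1, 43.9, 97.6 and 13.4 and 17.3, 21.2, 63.5 and 48.2 in ganglion. Dpysl5, of the collapsin response mediator family, was at 322, 325, 197 and 208 in ganglion and 63.5, 26.6 and 17.5 in nerve (log2 difference -2.88 ± 0.58 SE, edgeR adjusted p 0.119).

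**Figure D4:**
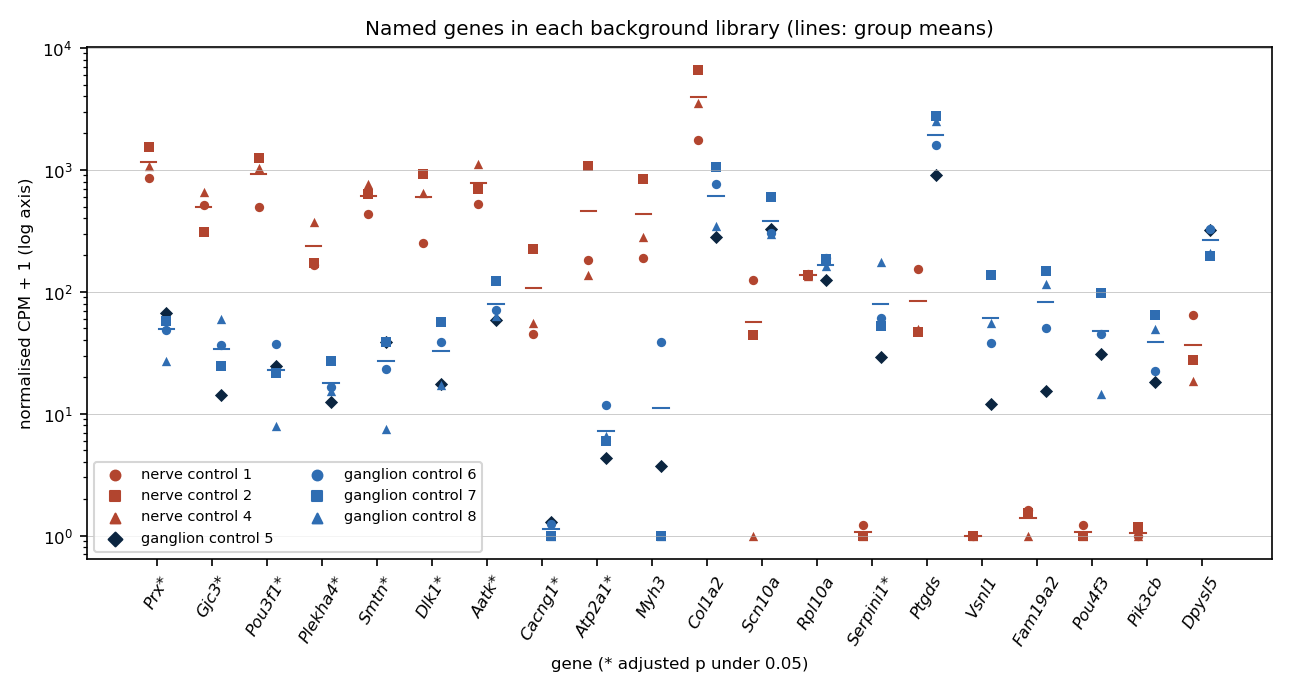
Normalised CPM plus 1 (log axis) of 20 named genes in each of the 7 background libraries; red symbols are nerve, blue ganglion, the dark diamond is the library labelled ganglion control 5, short lines are group means and stars mark called genes. The 9 genes called higher in nerve separate fully, Serpini1 lies at or near 1 in nerve, and Rpl10a lies within a narrow range in all libraries.

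Other cell types of the tissues gave smaller sums, with few members that differed. The 10 endothelial genes summed to 154, 228 and 205 normalised CPM in nerve and 73.8, 129, 147 and 103 in ganglion, with 0 genes at an unadjusted p under 0.05. Macrophage markers were at 95.5, 494 and 298 in nerve and 64.3, 161, 125 and 202 in ganglion, with 0 of 11 at that level. Haemoglobin and other erythroid genes stood at 114, 435 and 199 in nerve and 91.9, 1843, 971 and 545 in ganglion, and overlapped through the library labelled ganglion control 5. Without it 4 of 5 lay below in every nerve library and 0 were called, with no share over all genes computed for that setting. Adipocyte genes gave 329, 458 and 523 in nerve and 62.5, 160.4, 196 and 123 in ganglion, carried by Lpl, Car3, Fabp4 and Scd1, while the defining genes Adipoq, Plin1, Cidec, Lep and Cfd were at 0 in all nerve libraries. Central glia genes, which neither tissue should hold, summed to at most 9.73 normalised CPM in any library, and the keratinocyte genes Krt5 and Krt14 were at 0 in all 7.

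Some proliferation genes lay higher in nerve. Mki67, a nuclear protein of cycling cells, was at 235, 304 and 137 normalised CPM in nerve and 14.1, 40.9, 79.6 and 18.5 in ganglion (log2 difference 2.56 ± 0.66 SE, edgeR adjusted p 0.199, not called). Of the 10 cell cycle genes 4 did not overlap, 3 had an unadjusted p under 0.05 and 0 were called. Malat1, a long RNA retained in the nucleus, was at 7502, 8538 and 8974 in nerve and 759.9, 5264, 3456 and 3394 in ganglion, and the library labelled ganglion control 5 was the lowest by far. In the immediate early and injury list 2 of 10 tested genes lay higher in nerve at an unadjusted p under 0.05, Nr4a1 and Atf3, and 0 were called. The injury-induced factor Atf3 was at 11.5, 20.7 and 40.1 in nerve, with 1 count in all 4 ganglion libraries together. The posterior patterning gene Hoxd10 had 0 counts in nerve and was at 6.22, 28.2, 67.4 and 10.4 in ganglion (edgeR adjusted p 0.164).

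Rpl10a, the gene of the tagged protein (chromosome 17, 28328471 to 28331033), was at 139, 136 and 133 normalised CPM in nerve and 123, 188, 183 and 162 in ganglion, and did not differ beyond the spread (log2 difference -0.27 ± 0.42 SE, edgeR adjusted p 0.908). The counts cannot tell a tagged from an endogenous transcript, and ribosomal protein genes share reads with near-identical pseudogenes. Over the 84 cytosolic ribosomal protein genes, 81 were tested, 0 had an unadjusted p under 0.05 and the median log2 fold change was -0.27. Without both nerve control 2 and the library labelled ganglion control 5 that median was -0.71, and 4 of 82 tested genes had an unadjusted p under 0.05. In that setting 36 of the genes had every nerve library below every ganglion library, against 1 with all libraries. Fewer libraries separate more readily, and the share over all genes was not computed there, so these counts are not compared. Mitochondria-encoded messenger RNA overlapped, with sums of 3958, 3029 and 11022 in nerve and 943, 5744, 6139 and 4653 in ganglion; 5 of its 13 genes, mt-Co2, mt-Co3, mt-Atp6, mt-Atp8 and mt-Nd4l, are listed at 0 in every library.

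The tissue difference of the background was then set beside that of the Cre libraries, which share no library with it, to see where the pulldown with tagged ribosomes departs from it. Over 13458 genes tested in both, the log2 fold changes, nerve minus ganglion, had a Pearson r of 0.533 and a Spearman's rho of 0.562; genes are not independent, and tissue and library handling are shared. All 11 called genes had the same sign in the Cre libraries. Of 1030 genes in which every background nerve library lay above every ganglion control, 967 (93.9%) were also higher in Cre nerve than in Cre ganglion, against 50.3% of all genes, and of 1157 that lay below, 1002 (86.6%) were also lower, against 49.7%.

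**Figure D5:**
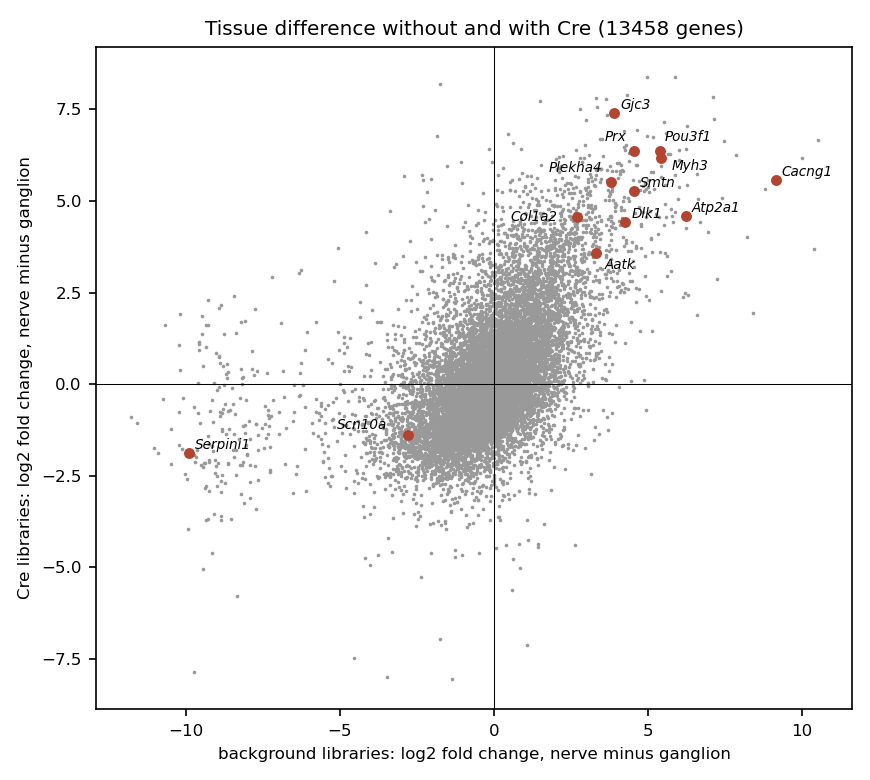
Log2 fold change, nerve minus ganglion, in the 7 background libraries (x axis) against that in the 8 Cre libraries (y axis) for 13458 genes; red points are called genes with Col1a2, Myh3 and Scn10a. All marked genes lie in the quadrants of equal sign, and Serpini1 lies farther from 0 on the x axis than on the y axis.

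Levels in the Cre libraries are on the scale of a fit to all 15 libraries of the batch, and those of the background above on the scale of the 7, so small differences between them are not read. Prx was at 1181, 741, 366 and 1084 normalised CPM in Cre nerve 1 to 4, a range that overlapped the nerve background, and at 13.8, 18.7, 4.96 and 7.96 in Cre ganglion 5 to 8, all below the ganglion background. Col1a2 was at 1283, 1499.8, 1305 and 1849 in Cre nerve, with 3 of the 4 below every nerve control, and at 61.8, 119.6, 51.8 and 48.0 in Cre ganglion, below every ganglion control. Myh3 was at 61.8, 118, 55.6 and 46.9 in Cre nerve, below every nerve control, and 0.887, 1.40, 1.47 and 0.489 in Cre ganglion. Scn10a was at 36.7, 306, 121 and 138 in Cre nerve and 366, 453, 412 and 527 in Cre ganglion.

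The interaction of tissue and genotype was tested in 15717 genes, and 1 (0.00636%) was called, while 1531 had an unadjusted p under 0.05. DESeq2 called 343 genes, and edgeR 66 without nerve control 1. Serpini1 was at 5.94, 8.84, 2.55 and 9.96 in Cre nerve, above every nerve control, and was not called (difference of log2 fold changes, background minus Cre, -7.94, SE 1.32, edgeR adjusted p 0.0865). Neither was Pik3cb, at 3.61, 15.1, 15.8 and 12.7 in Cre nerve (-8.03, SE 1.39, edgeR adjusted p 0.0929).

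In the other direction 3 genes had the smallest adjusted p, and none was called. Hadh, an enzyme of fatty acid oxidation, was at 186, 215 and 178 normalised CPM in the nerve background and 91.3, 54.0, 51.8 and 57.5 in the ganglion background, against 53.9, 72.8, 47.5 and 78.9 in Cre nerve and 82.8, 69.6, 92.4 and 89.3 in Cre ganglion (2.00, SE 0.49, edgeR adjusted p 0.275). The nerve controls were above all other libraries of the batch. Atf3 was at 1.27, 6.90, 1.28 and 12.9 in Cre nerve and 1.30, 1.09, 1.54 and 2.65 in Cre ganglion (6.85, SE 1.89, edgeR adjusted p 0.293). Rsu1, a suppressor of Ras signalling, was at 38.0, 71.7, 38.3 and 45.5 in Cre nerve and 123, 71.4, 171 and 132 in Cre ganglion (2.43, SE 0.68, edgeR adjusted p 0.293). Its background levels were 95.5, 109 and 398 in nerve and 107, 67.3, 93.4 and 133 in ganglion, with only nerve control 4 outside the ganglion range.

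Without the library labelled ganglion control 5 the interaction called 25 genes, 4 with a more positive and 21 with a more negative difference in the background. The 4 were Oaz2, Slc9a3r2, Napa and Crip2, named here after their values were seen. In each of them that library was closer to the Cre ganglion libraries than to ganglion controls 6 to 8. Since the 4 genes were picked through its omission, that likeness is largely set by the choice and is no further evidence on the library. Crip2, a LIM domain protein gene, was at 3350.5 normalised CPM in it, at 503, 769 and 712 in ganglion controls 6 to 8 and at 4063, 4164, 6697 and 5909.5 in Cre ganglion. Among the 21 were Serpini1 (-8.19, edgeR adjusted p 0.0304) and Pik3cb (-8.24, edgeR adjusted p 0.0304), which were not called with all 7 background libraries. Another was Lgi4, a secreted protein of Schwann cells needed for myelination, also chosen after its values were seen. It was at 167, 65.6, 73.0 and 115 in Cre nerve, 1.77, 5.45, 2.28 and 2.51 in Cre ganglion, 56.5, 38.5 and 64.4 in the nerve background and 5.63, 46.1, 26.5 and 29.3 in the ganglion background (difference -4.48, SE 0.76, edgeR adjusted p 0.0304). In that fit its tissue difference was larger with Cre than without. With all 7 background libraries, the median interaction over the 16 myelin genes was -1.66, beside -0.13 over all genes tested, and 6 had a more negative and 1 a more positive interaction at an unadjusted p under 0.05. Medians below 0 were not particular to myelin genes. The median was -3.80 for mitochondria-encoded messenger RNA (8 of 8 tested more negative at that p), -3.75 for erythroid genes (4 of 5), -1.39 for basement membrane genes (6 of 10), -1.22 for fibroblast genes (5 of 15) and -1.14 for cytosolic ribosomal protein genes (28 of 82).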

How the data were processed

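Ribosome-associated RNA was isolated by affinity purification and made into libraries with the SMART-Seq v4 kit, per the labels' protocols. The deposited values were raw counts per gene, 1 table for the second batch, which the authors made from reads aligned with STAR 2.7.2b to mm10, per the submitters' processing notes; the counting program and its strand setting are not given in the sources used here. All 55536 gene identifiers matched the GENCODE M21 annotation of GRCm38, which supplied symbols, coordinates and exon overlap.

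In R 4.3.3, genes passing the edgeR 4.0.16 expression filter (at least 10 counts in as many libraries as the smaller group, total at least 15) were scaled by TMM and tested with the quasi-likelihood F-test, 3 nerve against 4 ganglion controls, p-values being adjusted by Benjamini-Hochberg. The interaction of tissue and genotype used all 15 libraries of the batch. Genes detected were compared by an exact permutation test. Alternatives were DESeq2 1.42.0, limma 3.58.1 (voom), other scalings and filters, thinned counts and omission of each library. The steps were tested on simulated data.

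Named genes were taken among those without overlap, with a log2 fold change of at least 1 in size and a mean of at least 20 CPM in a group. On the higher side they were the 8 called genes with the smallest adjusted p, ties going to the larger fold change, and the 6 with the largest fold change. On the lower side fewer than 3 genes were called, so the 8 with the smallest unadjusted p were taken. The 3 on each side of the interaction were added, and Scn10a, Rpl10a, Col1a2 and Myh3. The libraries, markers and lists were chosen with earlier results of these data known. Libraries of the first batch were not used here, and some genes, counted among those tested and called, are not reported here.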

Additional observations from a re-analysis of the deposited data

Results flagged for a closer look

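A library was taken to stand apart when it lay away from the other 3 of its group, by a gap to its nearest neighbour that exceeded Dixon's 95% critical share of the group's range, a gap that chance alone gives in about 1 in 20 groups. Of 57 groups tested, all of ganglion controls since nerve had 3 libraries, 7 had such a library. The library labelled ganglion control 5 stood apart in its total count (gap of 0.937 of the range) and in the level of Hadh, an enzyme of fatty acid oxidation, which was higher in it (0.858). Ganglion control 6 had the highest sum of adult skeletal muscle genes (0.943), of developmental and regenerating muscle genes (0.924) and of embryonic myosin Myh3 (0.928), a member of the latter list, so these are not separate measures. It also held the 1 count of Atf3 in its group, and a single count sets the gap to the whole range (1) in any library. Ganglion control 7 had the highest level of Scn10a, the Nav1.8 channel gene (0.904). In ganglion control 6 muscle genes summed to 1710.02 normalised CPM, above nerve control 4, and its fibroblast sum was not the highest of its group.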

How the results depend on the processing

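The number of genes called between nerve and ganglion background was 11; it was 11 to 13 with other scalings, thinned counts or a stricter count filter, and 607 with DESeq2, 260 with voom, 268 with no low-count filter and 526 when the 15 libraries of the batch were fitted jointly. Leaving out each library in turn gave 0 to 43 calls, and leaving out ganglion control 5 and nerve control 2 together, chosen after seeing the data, gave 0 (edgeR, 778 genes at an unadjusted p under 0.05). Without nerve control 2 or any 1 ganglion control edgeR called 0 genes, with 900 to 1340 at an unadjusted p under 0.05. No named gene changed sign under any alternative. For the interaction 1 gene was called, against 343 with DESeq2, 2 with voom, 23 with no low-count filter and 1 to 66 with libraries left out; scaling by library size alone moved its median over all genes from -0.13 to -0.40. The difference in genes detected, -840, ranged from -1868 to 485.2 with libraries left out, and turned positive without nerve control 4 (485.2) and without ganglion control 5 (126.7). The causes of these changes were not tested.

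No paired analysis was possible between nerve and ganglion because they share no replicate numbers. With the number as a replicate block within tissue, the interaction gave 0 calls in edgeR (642 genes at an unadjusted p under 0.05), and 2 of 7 same-numbered pairs deviated together (r over 0.1), so the numbers were not taken as pairs; 2 of 7 libraries correlated best with their own number.

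Limits are the small groups, the spread of 1.10 in biological coefficient of variation, the missing counts in nerve control 4 and the profile of the library labelled ganglion control 5. Low levels were not detectable under 0.166 to 0.833 CPM, and input amount and tissue cannot be told apart.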

Other observations

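Imprinted genes of growth control were looked at because Dlk1 was seen among the called genes, so their values, Dlk1 included, are a description with no test. Of 14 genes, 6 had every nerve library above every ganglion library and 1 had a negative log2 fold change. The median log2 fold change was 2.27, and 1.44 without nerve control 2. Cdkn1c, an inhibitor of the cell cycle, was at 1225, 3297 and 2834 normalised CPM in nerve controls 1, 2 and 4 and at 135, 347, 309.9 and 309 in ganglion controls 5 to 8 (edgeR adjusted p 0.0780, not called). H19, a long RNA of growing tissue, was at 629, 4838 and 1138 in nerve and 115, 769, 244 and 716 in ganglion, so that nerve control 1 lay inside the ganglion range.

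Transcripts of the sex chromosomes were mixed within groups. Xist, expressed in cells with more than 1 X chromosome, was at 138, 16.0 and 0 normalised CPM in nerve and 3.94, 2.52, 0 and 0 in ganglion. Ddx3y, on the Y chromosome, was at 5.10, 102 and 124 in nerve and 9.98, 113, 59.0 and 229 in ganglion. The lowest of its group was nerve control 1 in one tissue and the library labelled ganglion control 5 in the other.

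Ube2c, an enzyme of mitotic exit, was at 723, 10098 and 94.3 normalised CPM in nerve and 14.3, 320.3, 138 and 31.5 in ganglion, and most of its nerve signal came from nerve control 2 (edgeR adjusted p 0.259). In each tissue its highest level lay in the library with the highest adult muscle sum, nerve control 2 (46600) and ganglion control 6 (1710). Whether its reads came from cycling cells was not tested.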
